A study of Drosophila melanogaster with 6 samples.

Results

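The Turandot genes of Drosophila melanogaster encode small secreted proteins that appear in the blood of flies under stress. Members were chosen by symbol, as the genes TotA, TotB, TotC, TotF, TotM, TotX and TotZ. These are 7 of the 17476 genes with a row in the count tables. A count above 0 in at least 1 library was found for 6 of them, and 3 of them, TotA, TotC and TotX, passed edgeR's filter on low counts and were tested. Polyadenylated RNA of whole, hand-dissected wings of flies aged 3 days was sequenced. Control flies were w1118 Canton-S and mutant flies carried Poxn 70, an allele of the gene that gives sensory bristles a chemosensory identity. The study's methods say that its lines were backcrossed to Canton-S w1118, so the w1118 mutation is shared by both genotypes. There were 3 libraries per genotype, and values per library are given below in the order of replicates 1, 2 and 3. The labels give 8000 wings from 4000 flies for each library, a number that does not add up with the total the study states elsewhere and is therefore uncertain. The study compared the genotypes to find transcripts of the wing's taste bristles, and the comparison here asks how the Turandot transcripts differed between the same libraries.

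As background, Turandot proteins are released into the hemolymph, mainly by the fat body, after bacterial infection, heat, ultraviolet light, dehydration or injury. TotA needs the JAK-STAT pathway: cytokines of the Unpaired family bind the receptor Domeless, the kinase Hopscotch is activated, and the transcription factor Stat92E enters the nucleus. The kinase Mekk1 and the Imd pathway, which ends in the NF-kappaB factor Relish, also take part in TotA induction. The adult wing is largely cuticle, with living cells, trachea, nerves and circulating hemolymph along its veins.

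Counts on genes lay between 10074860 and 14269486 in the libraries labelled control and between 14021115 and 16182811 in those labelled Poxn. Library sizes were scaled with TMM, which assumes that most genes do not change. The factors for control were 0.246, 0.522 and 1.28, and they lay between 1.76 and 1.87 in Poxn, so the effective sizes ran from 3180073 in control replicate 1 to 30066751 in Poxn replicate 2. The control libraries stood apart from each other and from the Poxn libraries in make-up: the 50 most abundant genes took between 37.7% and 62.4% of their counts against 30.9% to 32.3%, and genes with a longest transcript under 600 nt took between 16.6% and 30.6% against 5.68% to 7.03%. The mutated gene had more counts in the libraries labelled as its mutant. Poxn had 0, 6 and 3 counts in control and 92, 86 and 85 in Poxn (log2 fold change -2.95, SE 0.80, edgeR adjusted p = 0.0556). The sources used here do not say what the allele changes in the gene, so these counts do not check the labels, and control and Poxn below always mean the libraries so labelled. The gene acj6, which encodes a transcription factor of chemosensory neurons and was chosen after its values were seen, was called higher in control (log2 fold change 4.01, SE 0.56, edgeR adjusted p = 0.00996). Male accessory gland transcripts, the 5 genes Acp26Aa, Acp36DE, Acp53Ea, Acp62F and the sex peptide gene, summed to 298.7 CPM (counts per 1000000, here of the total counts on genes) in Poxn replicate 3, against at most 2.73 in any control library.

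In the Ensembl annotation of the release 6 assembly (BDGP6), 4 members lie in a row on the plus strand of chromosome arm 3R. These are TotA (FBgn0028396, 3R, 20871036 to 20871700), TotC (FBgn0044812, 20872988 to 20873580), TotB (FBgn0038838, 20873938 to 20874522) and TotZ (FBgn0044809, 20877736 to 20878363). The gap between TotC and TotB is 357 nt. TotX (FBgn0044810, 20904917 to 20905518, minus strand) is on the same arm, with 1 exon that lies inside an intron of Grik, a subunit gene of a kainate-type glutamate receptor read from the plus strand. That intron runs from 20904486 to 20905927, and 0 Grik exons overlap TotX. TotM (FBgn0031701, 2L, 5329857 to 5330464, plus strand) and TotF (FBgn0044811, 2L, 19911815 to 19912377, minus strand) are on chromosome arm 2L, far from each other. All 7 genes are short and protein coding, with longest transcripts of 506 nt (TotF) to 602 nt (TotX) and coding parts of 375 nt (TotF) to 441 nt (TotZ). Whether reads were counted by strand is not given in the sources used here, and the members are paralogs, so reads of overlapping or near-identical stretches may have been assigned otherwise or dropped.

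TotA, the stress-induced humoral factor that is best known of the family, was the most abundant member in every library. It had 423, 88 and 574 counts in control and 117, 149 and 109 in Poxn. With TMM scaling these were 133.0, 16.8 and 31.5 CPM in control against 4.22, 4.96 and 4.18 in Poxn. The lowest control library thus lay above the highest Poxn library, and control replicate 1 lay far above the other two control libraries. The means were 60.4 ± 63.3 and 4.45 ± 0.438 CPM (SD, n = 3 each). The fitted difference was 13.5-fold, a log2 fold change of 3.75 (SE 0.75, edgeR quasi-likelihood test with Benjamini-Hochberg adjustment, adjusted p = 0.0324), which missed the criterion of the study (over 4-fold with an adjusted p below 0.01). Without control replicate 1 the TotA log2 fold change was 2.44 (edgeR adjusted p = 0.0337), and without control replicate 2 it was 4.17 and passed (edgeR adjusted p = 0.0093).

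TotC, the neighbour of TotA and a stress-induced secreted protein like it, had 13, 18 and 143 counts in control and 30, 21 and 10 in Poxn. On the TMM scale this was 4.09, 3.43 and 7.84 CPM in control and 1.08, 0.698 and 0.383 CPM in Poxn, with no overlap. The means were 5.12 ± 2.38 and 0.721 ± 0.350 CPM (SD, n = 3 each). TotC differed 7.21-fold, a log2 fold change of 2.85 (SE 0.56, edgeR adjusted p = 0.0312), and also missed the criterion. Control replicate 3 held most of its control counts and the highest level.

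TotX, the member inside the Grik intron, had 22, 34 and 146 counts in control and 93, 79 and 64 in Poxn. Its TMM-scaled levels were the most even of the tested members among the control libraries, 6.92, 6.47 and 8.01 CPM in control and 3.35, 2.63 and 2.45 CPM in Poxn. The libraries did not overlap on this scale, with means of 7.13 ± 0.790 and 2.81 ± 0.477 CPM (SD, n = 3 each). The difference was 2.54-fold, a log2 fold change of 1.35 (SE 0.36, edgeR adjusted p = 0.0552), below both parts of the criterion.

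TotM, known from Drosophila for its induction in females around mating, was a low-abundance transcript and did not pass the filter. It had 6, 23 and 22 counts in control and 3, 8 and 1 in Poxn, or 1.89, 4.38 and 1.21 CPM against 0.108, 0.266 and 0.0383 CPM with TMM scaling. Every control library lay above every Poxn library, although Poxn replicates 1 and 3 were at or under 3 counts, the most that a count of 0 allows. In a fit without the filter the TotM log2 fold change was 3.90 (SE 0.89, edgeR adjusted p = 0.0300), and here too the criterion was missed.

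The other 3 members were at the edge of detection. TotZ had 2, 0 and 4 counts in control and 7, 9 and 9 in Poxn, the only member with more reads in every Poxn library than in any control library. With TMM scaling its means were 0.283 ± 0.319 and 0.299 ± 0.0463 CPM (SD, n = 3 each), and the libraries overlapped. TotB had 0, 0 and 1 counts in control and 6, 1 and 6 in Poxn, and its levels overlapped. In the fit without the filter TotZ gave a log2 fold change of -0.43 (SE 1.08, edgeR adjusted p = 0.815) and TotB one of -2.12 (SE 1.49, edgeR adjusted p = 0.393), neither distinguishable from 0. TotF had 0 counts in all 6 libraries. No reads still leaves room for up to 3 counts, or between 0.185 and 0.298 CPM of total counts, and this limit covers counting error only. TotE, a further paralog 560 nt from TotF, also had 0 counts in all 6 libraries.

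**Figure D1:**
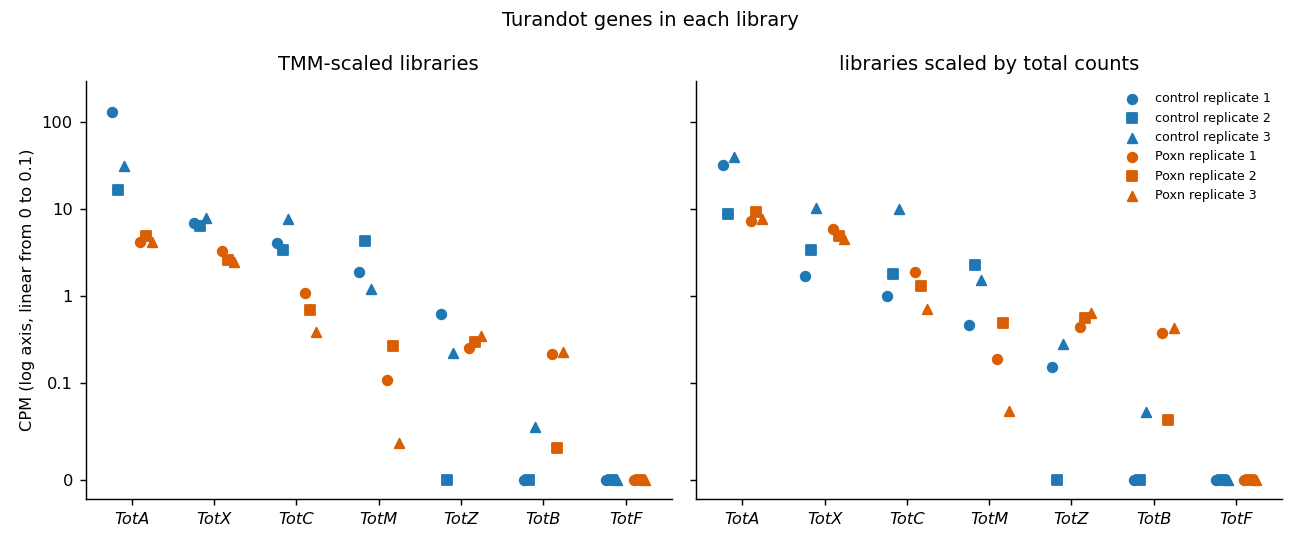
CPM of each Turandot gene in each library (vertical axis, logarithmic above 0.1 and linear below), with TMM scaling on the left and scaling by total counts on the right. Colours mark the libraries labelled control and Poxn and symbols mark replicates. On the left TotA, TotX, TotC and TotM show no overlap between genotypes, whereas on the right each of these 4 overlaps.

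No tested member passed the criterion in either direction with edgeR, 0 of 3, where 0.602% of all 8973 genes tested were called higher in control and 0.0557% higher in Poxn. An unadjusted p under 0.05 in the direction of control was found for 3 of 3, beside 17.8% of all genes tested (14.1% in the direction of Poxn). That share was not computed for genes of similar transcript length. With DESeq2, the study's tool, 2 of the 3 were called higher in control, TotA (log2 fold change 3.94, adjusted p = 1.28e-05) and TotC (log2 fold change 2.98, adjusted p = 1.14e-05). DESeq2 called more genes over the whole table, 7.56% higher in control and 0.741% higher in Poxn, and TotX stayed under 4-fold (log2 fold change 1.48, DESeq2 adjusted p = 0.000542). In an exact two-sided permutation test of single genes, with 3 libraries on each side, p can be no smaller than 0.1. On the TMM scale TotA, TotC, TotX and TotM each gave this smallest value in the exact permutation test, p = 0.1. Without Poxn replicate 3, the library with the accessory gland transcripts, the log2 fold changes were 3.70 for TotA, 2.53 for TotC and 1.25 for TotX (edgeR adjusted p = 0.152, 0.156 and 0.235). Leaving out Poxn replicate 1 (edgeR adjusted p = 0.155, 0.136 and 0.193) or Poxn replicate 2 (0.174, 0.182 and 0.251) raised the adjusted p in the same way. Without control replicate 3, which held the most TotC and TotX counts, they were 4.11, 2.399 and 1.29 (edgeR adjusted p = 0.0231, 0.0282 and 0.0410).

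The size of these differences depended on how the libraries were scaled. When counts were divided by total counts on genes instead, the median log2 fold change over all genes moved from -0.0072 to -1.39, so a member's change is read relative to that shift. Relative to the median gene, TotA lay 3.76 higher on the log2 scale with TMM and 3.14 with total counts, TotC 2.86 and 3.10, and TotX 1.35 and 1.39. On this scale TotA had 32.7, 8.73 and 40.2 CPM in control and 7.40, 9.21 and 7.77 CPM in Poxn. Control replicate 2 lay among the Poxn libraries, while the other two control libraries stayed above them. The log2 fold change of TotA was 1.74 and that of TotC 1.71 (edgeR adjusted p = 0.174 and 0.212), and neither was called. TotX had 1.70, 3.37 and 10.2 CPM in control against 5.88, 4.88 and 4.56 CPM in Poxn, so its libraries overlapped. Its means were 5.10 ± 4.52 and 5.11 ± 0.688 CPM (SD, n = 3 each) and its log2 fold change was -0.00048 (edgeR adjusted p = 0.9996). Relative to the median of the 169 other tested genes of 506 to 602 nt, TotX lay at -0.35 with TMM and -0.039 with total counts. On the same basis TotA lay at 2.06 and 1.70 and TotC at 1.16 and 1.67. Libraries of the 2 genotypes did not overlap, with control above, for 3 of the 3 tested members under TMM, beside 17.9% of all genes tested, and for 0 of 3 under total counts, beside 2.72% of all genes. Among the 169 other tested genes of 506 to 602 nt the share under TMM was 58.6%.

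**Figure D2:**
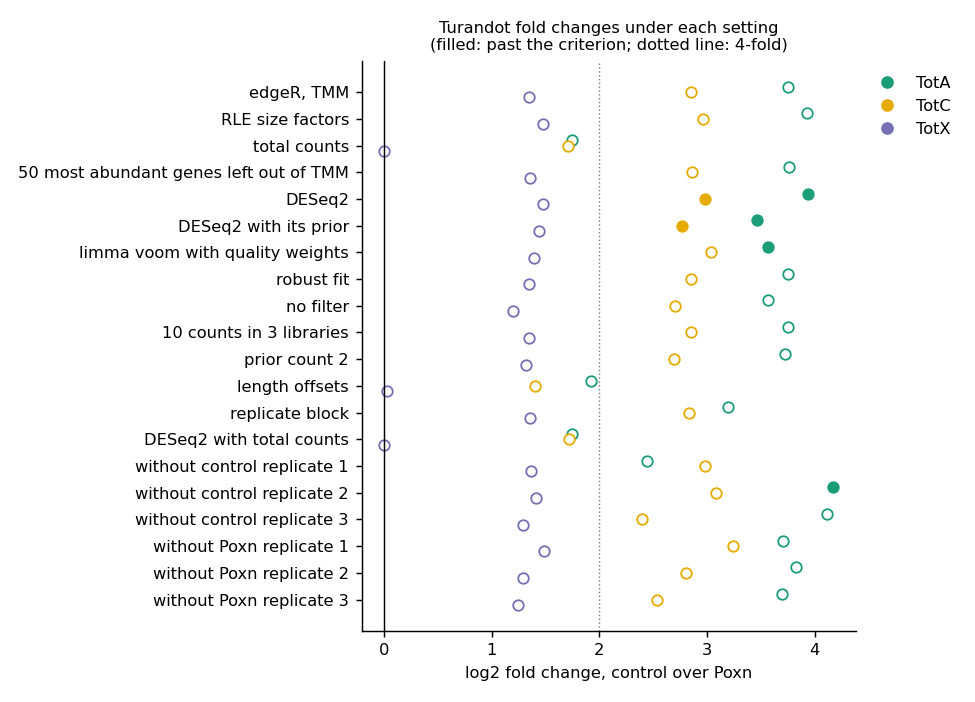
Log2 fold change of TotA, TotC and TotX (horizontal axis, control over Poxn) under each setting of the analysis (vertical axis), with filled points past the criterion of more than 4-fold and adjusted p under 0.01. TotX falls near 0 with total counts, a scaling that moves the median of all genes to -1.39, and with length offsets, and TotA and TotC fall below 4-fold in both.

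Ratios between members within 1 library do not depend on the scaling. TotA had 19.2, 2.59 and 3.93 counts for each TotX count in control and 1.26, 1.89 and 1.70 in Poxn. The ratio of TotC to TotX was 0.591, 0.529 and 0.979 in control and 0.323, 0.266 and 0.156 in Poxn. Neither ratio overlapped between genotypes, so TotA and TotC stood higher beside TotX in each control library than in any Poxn library. The TotC to TotX ratios rest on few counts, 13 and 22 in control replicate 1 and 10 and 64 in Poxn replicate 3. Counting error of these ratios was not computed, nor was the share of other gene pairs that separate in this way. The ratio of TotA to TotC did overlap, with 32.5, 4.89 and 4.01 in control and 3.90, 7.10 and 10.9 in Poxn.

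Among the 3 tested members, the make-up of the Turandot counts separated the genotypes for TotX but not for TotA or TotC. All Turandot counts numbered 466, 163 and 890 in control and 256, 267 and 199 in Poxn. TotX took 4.72%, 20.9% and 16.4% of them in control and 36.3%, 29.6% and 32.2% in Poxn. TotA took 90.8% in control replicate 1 (exact 95% binomial interval 87.8% to 93.2%), more than in any other library, and 54.0% (46.0% to 61.8%) and 64.5% (61.3% to 67.6%) in control replicates 2 and 3. Its share in Poxn lay between 45.7% and 55.8% and overlapped with control. The TotC share was 2.79%, 11.0% and 16.1% in control and 11.7%, 7.87% and 5.03% in Poxn, also with overlap. Shares of TotZ and TotB separated as well, on very few counts. TotZ took at most 0.449% in control and 2.73% to 4.52% in Poxn, and TotB at most 0.112% in control and 0.375% to 3.02% in Poxn. TotM took 14.1% (9.16% to 20.4%) in control replicate 2 and at most 3.00% in any other library. Such intervals cover counting error only, since copies made by PCR are not independent molecules.

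**Figure D3:**
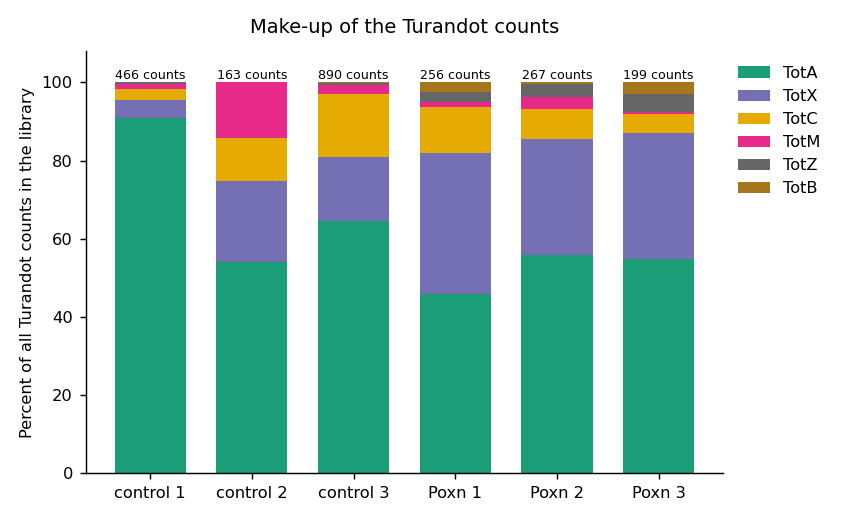
Percent of each library's Turandot counts (vertical axis) that fell on each member (colours), with the number of Turandot counts above each bar. TotX holds 29.6% to 36.3% in the Poxn libraries and 4.72% to 20.9% in the control libraries, and TotA holds 90.8% in control replicate 1.

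Levels of different members were compared per length, as FPKM, CPM of total counts per 1000 nt of the longest transcript. In control, TotA was at 47.0 ± 28.4 FPKM (SD, n = 3), followed by TotX at 8.48 ± 7.51, TotC at 8.06 ± 9.43 and TotM at 2.59 ± 1.66. TotX and TotC were not separated, and TotX lay above TotM in each control library. In Poxn the order was TotA at 14.0 ± 1.65 FPKM, TotX at 8.49 ± 1.14 and TotC at 2.46 ± 1.12, each apart from the next by more than its SD. TotZ at 0.955 ± 0.174, TotB at 0.551 ± 0.378 and TotM at 0.456 ± 0.395 FPKM followed. TotZ lay above TotB and TotM in each Poxn library, but none of them had more than 9 counts in a Poxn library. TotB and TotM were not separated from each other.

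Transcript length moved with the difference between the genotypes, and all Turandot transcripts are short. The 169 other tested genes with a longest transcript of 506 to 602 nt, the range of the family, had a median log2 fold change of 1.69 (quartiles 0.99 and 2.55), and 153 of them were higher in control. Among these genes, 4 were called and 99 (58.6%) had control libraries that all lay above the Poxn libraries. TotA lay above 156 of the 169 (92.3%), TotC above 132 (78.1%) and TotX above 60 (35.5%). TotX was thus lower than the median gene of its length, although it was above 84.5% of all genes tested. With offsets that take out each library's trend with transcript length, the log2 fold change of TotA went from 3.75 to 1.93, under 4-fold, that of TotC from 2.85 to 1.40 and that of TotX from 1.35 to 0.02 (edgeR adjusted p = 0.0762, 0.207 and 0.979). A difference in the RNA of the libraries with length and a difference in the wing cannot be told apart here, because it follows the genotypes.

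**Figure D4:**
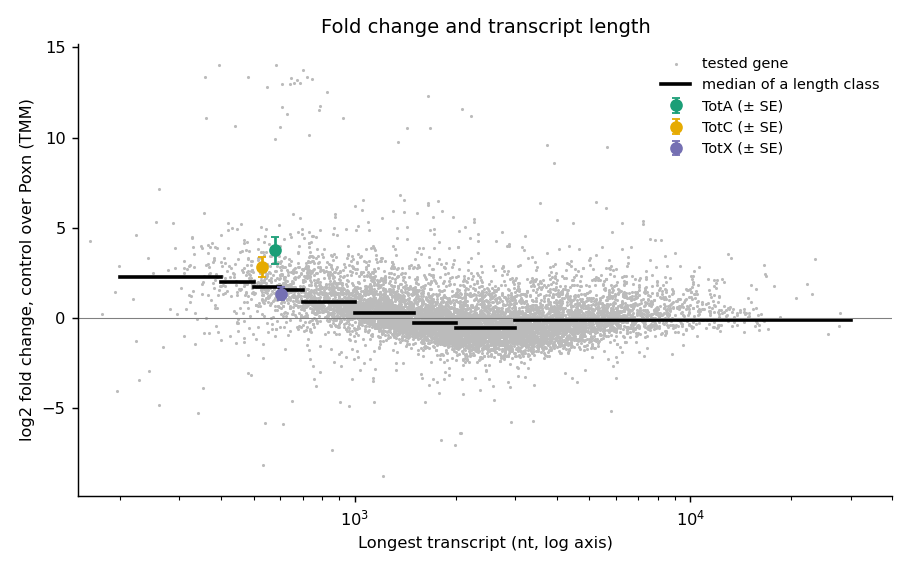
Log2 fold change of control over Poxn with TMM scaling (vertical axis) against the longest transcript (horizontal axis, logarithmic) for each tested gene, with bars at the median of each length class. TotA and TotC (points with SE) lie above the median of 1.70 of the 500 to 600 nt class, while TotX lies near the bars of its length.

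Across the 6 libraries, Pearson's r of log2 CPM with TMM scaling was 0.81 for TotA and TotC, 0.85 for TotA and TotX and 0.99 for TotC and TotX. With total counts these were 0.56, -0.0052 and 0.72. These values describe 6 points that share the library scaling. The 5 genes outside the family most like TotA by this measure were SsRbeta, which encodes the signal sequence receptor beta subunit of the protein translocation machinery, CG12278, cDIP, which encodes a leucine-rich repeat protein, CG31704 and CG32706, with r of at least 0.996 each. Such values were common, since 701 of 8970 genes had an r over 0.9 with TotA, and 45 did with total counts. CG31704 stayed at 0.98 with total counts and SsRbeta went to -0.068. CG31704 had 104, 22 and 126 counts in control and 19, 22 and 17 in Poxn, with a transcript of 514 nt and a log2 fold change of 4.35 (edgeR adjusted p = 0.0271).

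The genes next to the members were examined because their reads could be counted for a member or the reverse. Grik, the host of TotX, had 5, 9 and 26 counts in control and 58, 50 and 67 in Poxn. Its log2 fold change was -0.44 (SE 0.42, edgeR adjusted p = 0.509), and every library but Poxn replicate 3 held more TotX than Grik counts. The gene fusl, which lies 5 nt from TotM on the opposite strand, had 34, 997 and 208 counts in control and 385, 475 and 453 in Poxn (log2 fold change 2.17, SE 1.02, edgeR adjusted p = 0.182). Its highest library, control replicate 2, was also the one with the highest TotM level, and the part of fusl in the TotM counts was not tested. Ir93a, a receptor gene of temperature- and humidity-sensing neurons that lies 11090 nt from TotA, had 43, 11 and 33 counts in control and 8, 1 and 7 in Poxn (log2 fold change 4.76, SE 1.03, edgeR adjusted p = 0.0352). None of the tested neighbours passed the criterion. The neighbours cype, CG14022, Acsf2, Ktl and CG31191 had log2 fold changes of 2.67, 0.19, 0.04, -0.71 and 0.73, with edgeR adjusted p of at least 0.0696.

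The genes known to act above the Turandot genes were taken by their role, and their lists were not matched for transcript length. Of the cytokines and receptors of the JAK-STAT pathway, 3 of 5 were tested and 0 passed the criterion in either direction, with a median log2 fold change of -0.73 beside -0.0072 over all genes. The cytokine gene upd2 had 1, 2 and 9 counts in control and 35, 74 and 23 in Poxn (log2 fold change -1.83, SE 0.61, edgeR adjusted p = 0.0854). Its relative upd3, the cytokine that hemocytes release after infection, had 1, 1 and 10 counts in control and 9, 7 and 7 in Poxn and was not tested. The receptor gene dome had a log2 fold change of -0.73 and et, which encodes a shortened receptor that blocks signalling, one of 1.44 (edgeR adjusted p = 0.197 and 0.212).

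The kinase gene hop and Stat92E were both tested and 0 of 2 passed. Stat92E had 98, 2827 and 323 counts in control and 977, 1360 and 1231 in Poxn, with a log2 fold change of 2.20 (SE 1.13, edgeR adjusted p = 0.218). Its control replicate 2 stood far above the rest. Whether the levels of these pathway genes bear on those of the Turandot genes was not tested. For hop the log2 fold change was 0.74 (edgeR adjusted p = 0.317). Of the 5 inhibitors of the pathway 0 passed with edgeR, with a median log2 fold change of -0.17. Socs36E, a feedback inhibitor that Stat92E itself induces, had 193, 467 and 314 counts in control and 492, 496 and 299 in Poxn (log2 fold change 1.86, SE 0.56, edgeR adjusted p = 0.0682, DESeq2 adjusted p = 0.00999 and called there). The phosphatase gene Ptp61F had a log2 fold change of -1.25 (edgeR adjusted p = 0.0659).

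Other humoral genes known to respond to JAK-STAT signalling went both ways, and 0 of the 4 tested of 6 passed. The thioester protein gene Tep2 had a log2 fold change of -1.44 (SE 0.44) and Tep4 one of 1.77 (SE 0.66), with edgeR adjusted p of 0.0696 and 0.110. The gene vir-1, a marker of JAK-STAT signalling during viral infection, gave 1.55 and the antibacterial peptide gene Listericin -0.05 (edgeR adjusted p = 0.380 and 0.970). Tep1 and Diedel were too low to be tested.

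Of the 10 genes of the Imd pathway 0 passed with edgeR and their median log2 fold change was -0.75. Of the 10, 2 had a log2 fold change above 0. Unadjusted p was under 0.05 for 4 in the direction of Poxn, where 14.1% of all genes tested were, and for 1 in the direction of control, where 17.8% were. Longest transcripts of this list ran from 1163 to 3499 nt. Of all tested genes, 36.4% were above 0 at 1500 to 2000 nt (median -0.29) and 26.8% at 2000 to 3000 nt (median -0.58). At 1000 to 1500 nt 63.6% were (median 0.26), and from 3000 nt up 44.4% (median -0.11). The part of transcript length in the values of this list was not tested. IKKbeta, a kinase gene needed to activate Relish, had 10, 16 and 38 counts in control and 221, 275 and 253 in Poxn (log2 fold change -1.73, SE 0.37, edgeR adjusted p = 0.0350), and the adaptor gene imd 203, 790 and 706 against 567, 565 and 630 (log2 fold change 1.995, SE 0.51, edgeR adjusted p = 0.0511, called with DESeq2 at an adjusted p of 0.00183). These 2 differed in sign. Tab2, whose product works with the kinase Tak1, had a log2 fold change of -1.28 (edgeR adjusted p = 0.0634). Of the stress kinase genes 11 of 12 were tested and 0 passed, with a median log2 fold change of -0.25. The AP-1 gene kay had -1.21, the p38 activator gene lic -1.73 and the JNK phosphatase gene puc 1.02 (edgeR adjusted p = 0.0714, 0.0916 and 0.150). Mekk1, the kinase tied to TotA induction, had 16, 225 and 173 counts in control and 348, 261 and 298 in Poxn (log2 fold change 0.82, SE 0.69, edgeR adjusted p = 0.450).

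Antimicrobial peptide genes, which are short secreted immune effectors like the Turandot genes, did not share their direction with TMM scaling. Of the 13 tested of 14, 12 had a log2 fold change below 0, the median was -0.80, and 0 passed the criterion or had an unadjusted p under 0.05. Their counts were uneven among the control libraries. Def, the gene of the peptide Defensin, had 191, 159 and 5907 counts in control and 7497, 14835 and 5058 in Poxn (log2 fold change -1.21, SE 0.86, edgeR adjusted p = 0.368). The 3 with the smallest p were AttA, Mtk and Def, and AttA and Mtk had log2 fold changes of -1.55 and -1.62 (edgeR adjusted p = 0.182 and 0.215). With total counts 0 of the 13 peptide genes lay above 0, where 1054 of all 8973 genes did, and the median of the peptide genes was -1.63 beside -1.39 over all genes. Peptide transcripts are short, at most 268 nt (Mtk) to 900 nt (AttC). On that scale the medians of tested genes by length fell from 0.45 under 400 nt to -0.51 at 700 to 1000 nt. The peptide median lay below these.

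**Figure D5:**
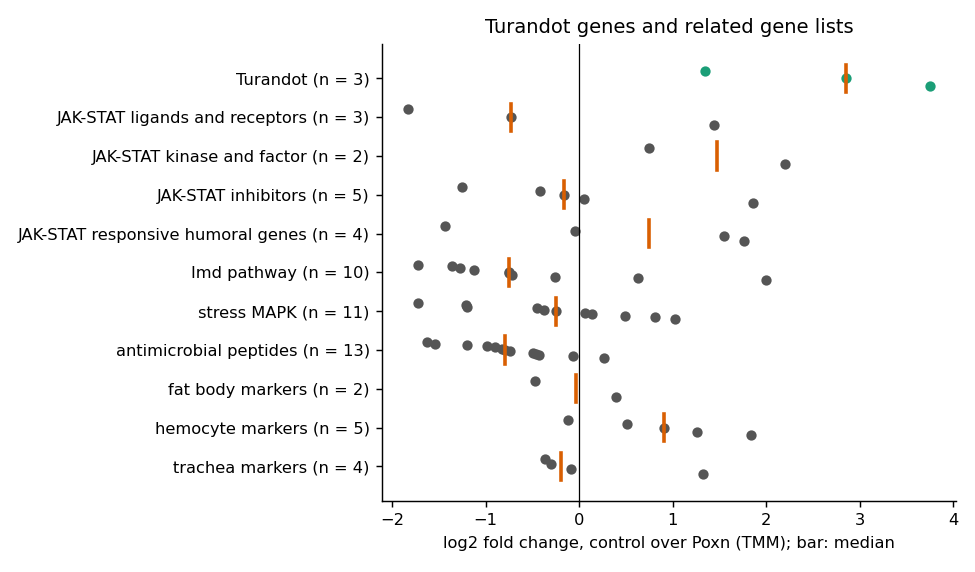
Log2 fold change of control over Poxn with TMM scaling (horizontal axis) for each tested gene of the Turandot family and of lists of related genes and cell markers (vertical axis, number tested in brackets), with a bar at each median. The 3 Turandot genes lie between 1.35 and 3.75, whereas 12 of 13 antimicrobial peptide genes lie below 0.

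Markers of the fat body, a known source of Turandot proteins, and of other cells a wing sample could hold were followed in the same libraries, on both scales. In whole wings, fewer cells of a type and less RNA per cell cannot be told apart. All 10 wing patterning genes were detected, with summed CPM of total counts of 112.4 to 374.5 in control and 356.0 to 438.9 in Poxn, and of 215.5 to 657.2 and 191.3 to 250.05 CPM with TMM. Of these 10 genes, 5 had a log2 fold change above 0 with TMM scaling, and the median was 0.04. The genes ara and caup, which pattern the wing veins and bristles, had log2 fold changes of 2.19 and 1.53 (edgeR adjusted p = 0.0438 and 0.0333), and vg had 1.26 (edgeR adjusted p = 0.0637). In the other direction, kn had -1.51 and bs -0.92 (edgeR adjusted p = 0.110 and 0.163). No marker of any list passed the criterion with edgeR. Of the 9 fat body markers, 2 passed the filter, the lipoprotein genes apolpp and Apoltp. The yolk protein genes Yp1, Yp2 and Yp3, made by the female fat body, had at most 11 counts in any library. The summed fat body markers lay at 11.7 to 65.2 CPM in control and 73.5 to 76.5 in Poxn with total counts, and with TMM at 22.5 to 88.7 CPM in control and 39.5 to 42.2 in Poxn. Each Poxn library was thus above all control libraries on the first scale, and the genotypes overlapped on the second. On the first scale the 2 tested fat body genes had a median log2 fold change of -1.39, the same as all genes. Only 1054 of all 8973 genes lay above 0 there. Of the 6 hemocyte markers, 5 were tested and 0 passed. Their sums ran from 9.89 to 29.0 CPM in control and from 21.5 to 34.8 in Poxn with total counts. With TMM they ran from 20.1 to 55.6 CPM in control and from 11.6 to 19.8 in Poxn. On this scale the sums were higher in every control library, but narrowly, with 20.1 CPM at the lowest in control and 19.8 CPM at the highest in Poxn. Of the 5 tested hemocyte genes, 2 had all control libraries above the Poxn libraries, beside 17.9% of all genes tested. Their log2 fold changes ran from -0.12 for srp to 1.84 for Pxn, the peroxidasin gene (SE 0.49, edgeR adjusted p = 0.0543). Of the 5 tracheal markers 4 were matched and tested, and 0 passed. The chitin deacetylase genes verm and serp had 24 and 16 counts in control replicate 2 against 1035 and 673 in control replicate 1. Their log2 fold changes were -0.30 and -0.09 (edgeR adjusted p = 0.879 and 0.965). That of pio, the tracheal marker with the smallest p, was 1.33 (edgeR adjusted p = 0.255). The tracheal sums were 186.8 to 1645 CPM in control and 1532 to 1820 in Poxn with total counts, and with TMM they were 358.2 to 2512 CPM in control and 837.4 to 978.2 in Poxn. Flight muscle markers summed to 44.4 to 319.5 CPM in control and 266.5 to 633.8 in Poxn with total counts, and to 174.6 to 250.1 and 143.2 to 341.1 with TMM. Neuronal markers summed to 94.1 to 215.9 CPM in control and 281.7 to 312.2 in Poxn with total counts, and to 169.0 to 392.8 and 160.5 to 167.8 with TMM. The genotypes were thus apart on both scales, in opposite directions and narrowly with TMM. Of the 5 neuronal genes 4 had a log2 fold change above 0 with TMM, among them futsch (1.86) and Syt1 (0.05), while nSyb had -1.38 (edgeR adjusted p = 0.0671, 0.935 and 0.0523). With total counts their median was -1.09 beside -1.39 over all genes. The part of these cells in the Turandot levels was not tested.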

How the data were processed

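Polyadenylated wing RNA of 2 genotypes, with 3 libraries each, was sequenced as paired reads. After trimming (Trim Galore 0.4.0) and alignment to the FlyBase release 6 genome (STAR 2.4.2a), the authors deposited raw counts per gene for each library, not normalized. The submitters' processing notes name HTSeq. Lines that name no gene, of which reads on no gene made up 47.9% to 58.6% of a library, were left out. The authors' table of their own DESeq2 comparison, with fold changes, p-values and 6 columns per library, was not used.

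Groups and replicate numbers followed the labels. Counts were tested with edgeR 4.0.16 in R 4.3.3 (quasi-likelihood, TMM, filterByExpr with a minimum count of 10, prior count 0.125, Benjamini-Hochberg over all genes tested). The quasi-likelihood test gives no standard error, so SE is the absolute log2 fold change over the square root of F. DESeq2 1.42.0 and limma 3.58.1 served as alternatives. The scripts were tested on simulated data. A positive log2 fold change means higher in control. Ensembl's BDGP6 annotation, the same release 6 assembly, gave symbols, positions and lengths for 17229 of the 17476 genes. No sequence tables were used, so promoters were not searched for motifs.

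Members and gene lists were chosen with earlier results of these data known. Named were all members, from each list of pathway or peptide genes those past the criterion and up to 3 with the smallest p, the 5 genes most like TotA, and 2 neighbours on each side. Pathway genes that bear on a sentence, markers and DESeq2 calls named beyond this were chosen after their values were seen. The labels call the libraries independent replicates. Alternatives were other scalings, tools, filters, prior counts and thresholds, length offsets, a replicate block and each library left out.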

Additional observations from a re-analysis of the deposited data

How the results depend on the processing

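Under 19 alternatives in scaling, tool, filter, prior count, length, block or libraries, TotA and TotC stayed higher in control in all, with log2 fold changes from 1.74 to 4.17 and from 1.40 to 3.24. TotX was above 0 in 18, among them values near 0 with length offsets (0.02) and with DESeq2 on total counts (4.3e-06). With edgeR on total counts it reached -0.00048, where the median of all genes was -1.39 and that of the other tested genes of 506 to 602 nt was 0.039. The number of members past the criterion, 0 with edgeR, was 2 with DESeq2, 2 with DESeq2 and its prior on fold changes, 1 with limma voom, 2 at an adjusted p under 0.05 with 4-fold, and 2 at that adjusted p without a fold threshold. It ranged from 0 to 1 when each library was left out. No alternative gave a member called higher in Poxn. DESeq2 with total counts, chosen after seeing the data, called 0 members, with log2 fold changes of 1.74 for TotA, 1.71 for TotC and 4.3e-06 for TotX. Over all genes, the calls were 54 in control and 5 in Poxn with edgeR, 63 and 85 with total counts, 673 and 66 with DESeq2, 222 and 24 without control replicate 3, and 3 and 0 without Poxn replicate 1.

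Deviations of same-numbered libraries correlated at 0.12, 0.14 and -0.068, so the numbers were not taken to pair them. With the replicate block the log2 fold changes were 3.19 for TotA, 2.83 for TotC and 1.36 for TotX, and 0 members were called in either direction, with 104 and 14 calls over all genes. The small counts of TotZ, TotB, TotM and TotF limit what can be said of them at this depth.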
